A study of Zea mays subsp. mexicana with 6 samples.

Results

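The 5 unigenes described here are signalling unigenes of teosinte, Zea mays ssp. mexicana L., that the study's paper names: 1 calmodulin-like calcium sensor (CML16, c61291_g1), 2 kinases that work with calcineurin B-like calcium sensors (c51372_g1 and c49176_g1), 1 mitogen-activated protein kinase kinase (MAPKK, c62016_g1) and 1 sucrose non-fermenting related kinase (SnRK1, c57228_g1). They were taken by identifier from a table of 184280 unigenes, a unigene being a gene-level cluster of transcripts in a de novo assembly. All 5 were found, and all 5 passed the low-level filter (FPKM averaging 1 or more across the 6 libraries), which left 38768 unigenes in the test. FPKM counts the fragments assigned to a unigene, divided by its length in kilobases and scaled to all mapped fragments of the library. For CML16 the filter was reached only through the stressed libraries.

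Seedlings of variety 8493 were grown in soil at 25°C and treated from 13 days after germination, and each of the 6 libraries was made from roots, stems and leaves pooled from several seedlings. The drought libraries (2) came from seedlings given Hoagland nutrient solution with 20% polyethylene glycol (PEG2000) for 3 h. PEG lowers the water potential around the roots. The cold libraries (2) came from seedlings kept at 4°C for 12 h, and the control libraries (2) from untreated seedlings. The stresses differed in duration. No Hoagland solution without PEG was among the 6 libraries, so PEG and the solution it was given in cannot be told apart.

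Cold and water deficit are known to raise free calcium in the cytosol of plant cells within minutes or less. Calmodulin and calmodulin-like proteins bind the ion through EF-hands, helix-loop-helix motifs, and change shape on binding. Calcineurin B-like proteins (CBLs) also bind calcium and then dock on and activate CBL-interacting protein kinases (CIPKs), which act on ion channels and transporters. In a MAP kinase cascade a MAPKK phosphorylates a MAP kinase and is itself switched on by a MAPKK kinase. SnRK1, the plant relative of yeast SNF1 and animal AMP-activated kinase, is known as a sensor of low energy and restrains growth, and CIPKs belong to the same superfamily.

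The paper's supplement gives the annotations and the only sequences of these unigenes used here. The unigene c61291_g1 is listed as a probable calcium-binding protein CML16 of maize, and its Arabidopsis hit is CML23. Both c51372_g1 and c49176_g1 are listed as maize CBL-interacting kinase 11, so they are kinases partnered by CBLs and not CBLs themselves, and the Arabidopsis hit of c51372_g1 carries another number, CIPK22. The transcripts of c62016_g1 are listed as MKK4, a putative MAPKK, or as an uncharacterized maize protein, and their Arabidopsis hit is MKK5. For c57228_g1 the name SnRK1 comes from the paper's text alone. The qRT-PCR primers of CML16 and of one CIPK unigene are shown because they are the stretches by which these transcripts can be found in another assembly. Each is written 5′ to 3′, with the last 5 bases, from which the polymerase extends, in capitals.
c61291_g1 forward: tccgtatccatccttgTCCCT
c61291_g1 reverse: agtatttgctggggtGGCAG
c51372_g1 forward: gggccagcctaacACGAA
c51372_g1 reverse: caacaataaacgggtCGGCA
The primers of the CML16 unigene are 21 and 20 bases long with a GC content of 52.4% and 55.0%, and those of the CIPK unigene 18 and 20 bases with 61.1% and 50.0%.

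For the calcium sensor and both CIPKs, FPKM was several times higher under drought and under cold than in the control. The MAPKK was highest under cold and the SnRK1 unigene lowest there. All comparisons used limma on log2(FPKM + 1) with 1 fit of the 6 libraries and p adjusted after Benjamini and Hochberg over the 38768 tested unigenes. A unigene is said here to rise or fall at an adjusted p under 0.05, and is called a DEG when its log2 fold change is also 2 or more in either direction and its adjusted p is under 0.005. The study picked these unigenes as DEGs on the same libraries, so the p-values are no independent evidence. For a single value, 2 libraries against 2 allow an exact permutation test (two-sided) no p below 0.333.

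**Figure D1:**
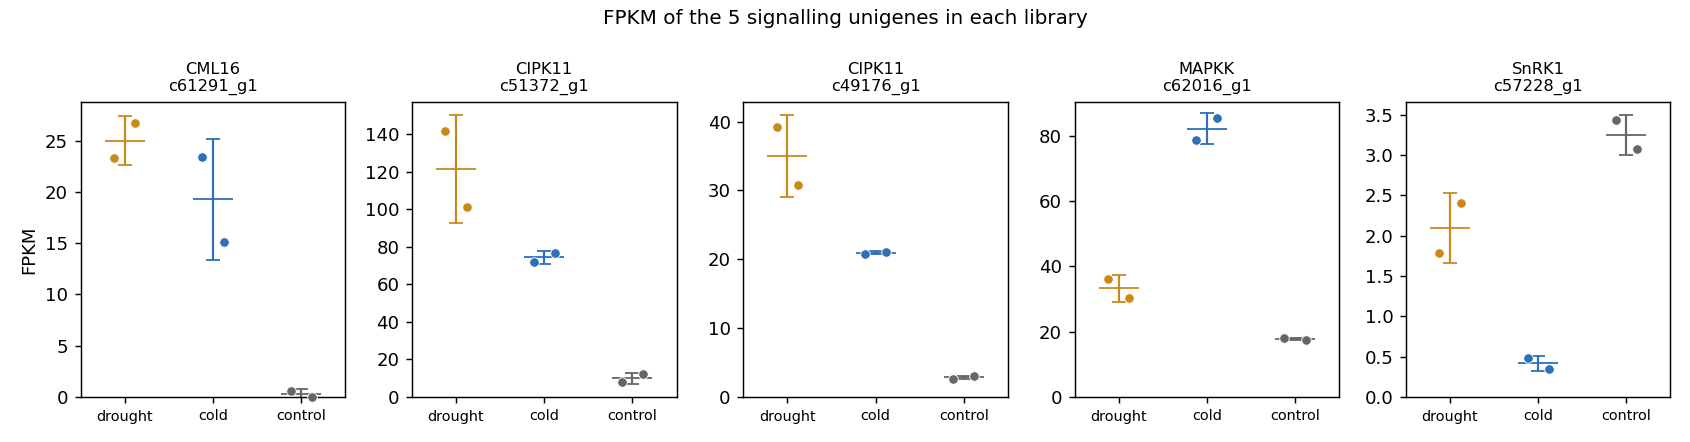
FPKM (y axis, linear from 0) of each unigene in the drought, cold and control groups, with points for the 2 libraries of a group, a horizontal bar for their mean and whiskers for the SD. The CML16 and both CIPK unigenes are low in the control and high in both stresses, the MAPKK is highest under cold (78.9 and 85.6) and SnRK1 is lowest under cold (0.48 and 0.35).

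The calcium sensor CML16 was close to 0 FPKM in unstressed seedlings. Its FPKM was 23.3 and 26.7 under drought, 23.5 and 15.1 under cold, and 0.61 and 0 in control libraries. All 4 stressed libraries thus stood far above both control libraries, while the drought and cold values overlapped. Its mean in the control, 0.305 ± 0.431 (SD, n = 2 libraries), exceeded that of only 3.21% of the tested unigenes, and its mean of 25.0 ± 2.41 under drought exceeded that of 79.6%. As whole tissues were pooled, fewer cells of a type and less RNA per cell cannot be told apart in this and the other results.

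Under drought CML16 rose by 4.36 on the log2 scale (standard error 0.31, limma adjusted p = 0.00182). Its rise under cold was 3.97 (adjusted p = 0.00105). Of the tested unigenes, 55 had a larger log2 fold change under drought and 61 a larger one under cold. Since the control is near 0, these values depend on the pseudocount. With 0.1 in place of 1 the log2 fold change was 6.56 under drought (adjusted p = 0.0128) and 6.15 under cold (adjusted p = 0.00552), and neither then passed the threshold of 0.005.

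Another unigene of the same assembly component, c61291_g2, is listed as a touch-induced calmodulin-related protein, and its Arabidopsis hit is CML24, known there as a gene induced by touch. Its FPKM was 91.7 and 79.6 under drought, 73.9 and 82.8 under cold, and 8.07 and 4.39 in control libraries. Like CML16 it was a DEG in both stresses, by 3.63 log2 units under drought (adjusted p = 0.00173) and 3.50 under cold (adjusted p = 0.000896). It was no longer a DEG in either stress without a filter or when any 1 of the 6 libraries was left out, where the adjusted p stayed at or below 0.0357. Its drought call also missed the 0.005 threshold with FPKM 1 or more required in 2 libraries (adjusted p = 0.00991), without the mean-variance trend (adjusted p = 0.00765) and in a separate fit (adjusted p = 0.00771). Reads of similar transcripts can be divided between unigenes of a component. Summed over both unigenes, the FPKM was 115.0 and 106.3 under drought, 97.4 and 97.9 under cold, and 8.68 and 4.39 in the control, and c61291_g1 made up 20.3% and 25.1%, 24.1% and 15.4%, and 7.03% and 0% of these sums in the same libraries.

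Of the CIPK unigenes, c51372_g1 was the more abundant. Its FPKM was 141.7 and 101.2 under drought, 71.7 and 76.8 under cold, and 7.73 and 12.1 in control libraries. The 3 groups did not overlap, and drought was highest. Group means were 121 ± 28.6 under drought, 74.3 ± 3.61 under cold and 9.90 ± 3.06 in the control (SD, n = 2 libraries each). Under drought this mean exceeded that of 97.0% of the tested unigenes, in the control that of 61.4%.

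For c49176_g1 the FPKM was 39.2 and 30.8 under drought, 20.8 and 21.1 under cold, and 2.66 and 3.00 in control libraries. The order of the groups was the same as in c51372_g1, again without overlap, and the replicates of the cold lay closest together. Means were 35.0 ± 5.96 under drought, 20.9 ± 0.205 under cold and 2.83 ± 0.240 in the control (SD, n = 2 libraries each).

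Both CIPK unigenes were DEGs in both stresses. Under drought the log2 fold change was 3.50 ± 0.24 (standard error) for c51372_g1 (adjusted p = 0.00172) and 3.22 ± 0.16 for c49176_g1 (adjusted p = 0.000722). Under cold it was 2.82 ± 0.24 for c51372_g1 (adjusted p = 0.00132) and 2.52 ± 0.16 for c49176_g1 (adjusted p = 0.000677). With the filter of FPKM 1 or more in 2 libraries, c51372_g1 missed the 0.005 threshold under drought (adjusted p = 0.00982) and cold (adjusted p = 0.00547). The ratio of the FPKM of c51372_g1 to that of c49176_g1 stayed between 2.91 and 4.02 over all libraries, with both extremes in the control. As both are annotated to the same maize kinase, near-identical copies or alleles could share reads, and their values may not be independent.

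**Figure D2:**
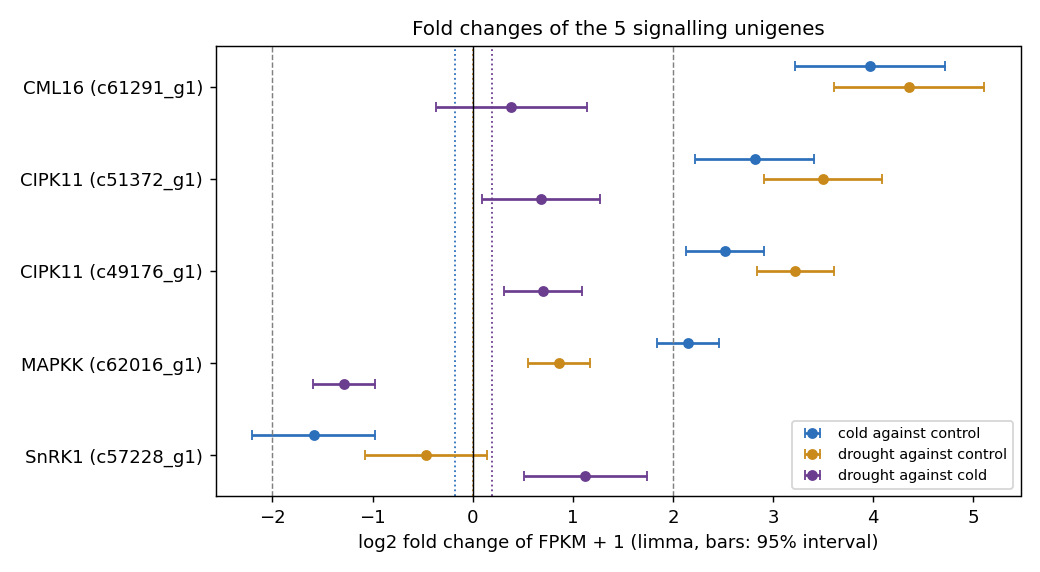
Log2 fold change of FPKM + 1 (x axis) of each unigene in 3 comparisons, with 95% intervals from limma, dashed lines at the DEG threshold of 2 in either direction and dotted lines at the median of all tested unigenes in the same comparison. Under cold all but SnRK1 lie past 2, and under drought only CML16 and both CIPK unigenes do.

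The MAPKK c62016_g1 was most abundant under cold. Its FPKM was 36.2 and 30.3 under drought, 78.9 and 85.6 under cold, and 18.1 and 17.5 in control libraries. No groups overlapped, and the means of 33.3 ± 4.21 under drought, 82.3 ± 4.74 under cold and 17.8 ± 0.431 in the control (SD, n = 2 libraries each) put drought in between. In Arabidopsis, MKK4 and MKK5 are known to activate the MAP kinases MPK3 and MPK6.

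The log2 fold change of the MAPKK was 2.15 under cold (standard error 0.13, adjusted p = 0.000583), just past the fold threshold. A smaller rise of 0.86 was found under drought (95% interval from 0.55 to 1.17, adjusted p = 0.0150), which is no DEG. The drought value stayed under an adjusted p of 0.05 in 10 of 14 alternatives, but the p reached 0.0977 without a filter, 0.0969 without control replicate 1, 0.0928 without control replicate 2 and 0.0832 without drought replicate 1. A MAP kinase unigene that the paper names beside it, c14147_g1, lay under the filter and was not tested, with an FPKM of 0 in both drought libraries, 0.86 and 4.90 under cold, and 0 and 0.06 in control libraries.

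SnRK1 was the exception in direction, and its level was the lowest of the 5 in both stresses. In the control its mean of 3.255 lay above those of CML16 (0.305) and c49176_g1 (2.83). The FPKM of c57228_g1 was 1.79 and 2.40 under drought, 0.48 and 0.35 under cold, and 3.43 and 3.08 in control libraries. These ranges did not overlap, with the cold lowest. Under cold the mean of 0.415 ± 0.0919 (SD, n = 2 libraries) exceeded that of only 4.44% of the tested unigenes.

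SnRK1 fell under cold by limma (adjusted p = 0.00656) with a log2 fold change of -1.59 ± 0.25 (standard error), and it met neither DEG threshold. On this scale the change of a low unigene is understated, and with a pseudocount of 0.1 it was -2.71 (adjusted p = 0.00615), past the threshold on fold but not on p. Under drought the log2 fold change was -0.47, with a 95% interval from -1.08 to 0.15 and an adjusted p of 0.351.

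The component of SnRK1 holds 2 more unigenes, both more abundant and neither named in the parts of the annotation used here. The FPKM of c57228_g3 was 34.1 and 26.3 under drought, 15.7 and 12.0 under cold, and 26.2 and 12.2 in control libraries. In c57228_g2 it was 8.26 and 4.93 under drought, 10.2 and 6.47 under cold, and 5.60 and 7.43 in the control. Neither passed the test against the control, and cold and control libraries overlapped in both. In drought against cold c57228_g3 was higher by 1.07 log2 units with an adjusted p of 0.0592, which became 0.0219 in a separate fit of the 4 libraries and 0.0234 and 0.0225 without control replicate 1 or 2. Over the whole component the FPKM summed to 44.1 and 33.6 under drought, 26.3 and 18.8 under cold, and 35.2 and 22.7 in the control, of which c57228_g1 made up 4.06% and 7.14%, 1.82% and 1.86%, and 9.74% and 13.6%. The component sum of the cold thus overlapped with that of the control, while c57228_g1 alone did not.

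**Figure D3:**
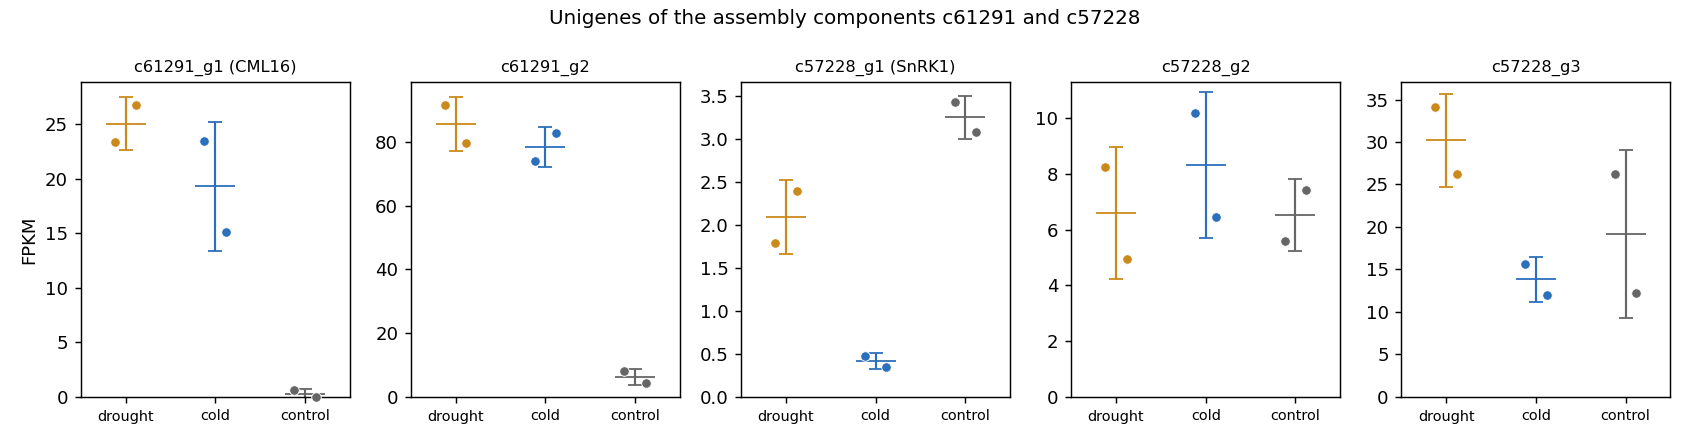
FPKM (y axis, linear from 0) of the unigenes of the assembly components c61291 and c57228 in drought, cold and control libraries, with points for libraries, bars for means and whiskers for the SD. Both c61291 unigenes are low in the control only, whereas of the c57228 unigenes only c57228_g1 separates cold from control.

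Against the control, 4 of the 5 unigenes were DEGs under cold, all higher, where 2.16% of all tested unigenes were DEGs with higher FPKM. Under drought 3 of the 5 were, against 0.725% of all. At an adjusted p under 0.05 all 5 changed under cold, 4 higher and 1 lower, but so did 37.2% of all tested unigenes, and under drought 4 rose, against 5.69% of all. Without regard to any test, 4 of the 5 had both libraries above the control under cold and 1 below it, where 28.1% and 43.8% of all did. Under drought 4 lay above and 1 below without overlap, where 27.8% and 24.6% of all did. Because the members were chosen as DEGs, nothing is read from these counts. Cold and drought share the control libraries. When any 1 of the 6 libraries was left out, no DEG was left among the 5 under drought and none under cold, except that without drought replicate 1 c49176_g1 and c62016_g1 were still cold DEGs. The fold changes of the 7 calls kept their sign in all 14 alternatives, which is no support. Other filters, the replicate block, the fit without the trend and the separate fit leave the fold change the same by construction. In each call both stressed libraries lay above both control libraries, so leaving out 1 library could not turn the sign. With 2 libraries in every group fitted, their limma adjusted p was at most 0.0292.

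The difference between the stresses was tested in drought against cold, in which the control libraries have no part in the fold change. The MAPKK was lower under drought than under cold, with a log2 fold change of -1.29 (95% interval from -1.60 to -0.98, adjusted p = 0.00166). SnRK1 was higher under drought, by 1.12 (interval from 0.51 to 1.74, adjusted p = 0.0180), and its p rose to 0.0585 in a separate fit of the 4 libraries, 0.0533 and 0.0683 without cold replicate 1 or 2, and 0.0737 without drought replicate 2. With a pseudocount of 0.1 the difference in SnRK1 was 2.09 (adjusted p = 0.0127). The CIPK unigene c49176_g1 was higher under drought by 0.71 (interval from 0.32 to 1.09, adjusted p = 0.0184), which median-of-ratios scaling reduced to 0.47 (adjusted p = 0.0760). Its p was also 0.0762 without a filter, 0.0817 and 0.0765 without cold replicate 1 or 2, and 0.0781 without drought replicate 1.

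In c51372_g1 the drought value was higher by 0.68 (interval from 0.09 to 1.28), but the adjusted p of 0.0708 missed the threshold. For CML16 the difference was 0.39 with an interval from -0.36 to 1.14 (adjusted p = 0.354), so a difference of more than 1 log2 unit in favour of drought is still inside the interval. None of the 5 was a DEG in this comparison by limma, where 3.68% of all tested unigenes were, and 4 had an unadjusted p under 0.05. The share of all at an unadjusted p under 0.05 is not given here, but it cannot be smaller than that at an adjusted p. In all, 3 of the 5 differed at an adjusted p under 0.05, beside 38.1% of all tested unigenes. In 3 of the 5 both drought libraries lay above both cold libraries and in 1 below them, which held for 43.9% and 27.2% of all.

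The cold libraries differed from the others as a whole. The median log2 fold change over all tested unigenes was -0.18 under cold, 0.01 under drought and 0.19 in drought against cold, so changes relative to the typical unigene are larger by 0.18 for the unigenes that rose under cold. With median-of-ratios scaling, which removes most of this shift, the log2 fold change under cold was 4.12 for CML16, 3.04 for c51372_g1, 2.72 for c49176_g1, 2.37 for the MAPKK and -1.48 for SnRK1. The same scaling changed the DEGs of the cold over all unigenes from 838 higher and 432 lower to 1086 higher and 299 lower, and those of drought against cold from 726 higher and 701 lower to 529 higher and 949 lower.

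As roots, stems and leaves were pooled, the make-up of each library was checked with leaf and root markers matched by maize name at 90% identity or more. The 14 leaf markers, among them the Rubisco small chain and chlorophyll a/b binding proteins, summed to an FPKM of 8691 and 8798 under drought, 13919 and 17032 under cold, and 13720 and 12995 in control libraries. Leaf transcripts were thus abundant in all libraries, with the lowest sums in both drought libraries. Among the tested leaf markers, the phosphoenolpyruvate carboxylase c56085_g1 went the other way. Its FPKM was 82.43 and 93.01 under drought, 68.57 and 63.09 under cold, and 56.96 and 57.35 in control libraries. The chlorophyll a/b binding unigene c45105_g1 overlapped between drought and cold, and every other tested leaf marker was lowest in the drought libraries. Of the 14, 3 were listed at 0 in at least 1 library. The 7 root markers, from genes such as the root O-methyltransferase ZRP4, summed to 17.1 and 15.6 under drought, 8.20 and 9.84 under cold, and 8.49 and 16.5 in the control. Those root sums were low in every library and higher in both drought libraries than in both cold libraries, while the control overlapped with each stress. The ZRP4 unigenes c46913_g1 and c46913_g2 made up most of each sum, and both were higher under drought than under cold. Of the others, c12220_g1, c39734_g2 and c12250_g1 overlapped between drought and cold, while c39734_g1 and c43295_g2 were low and at 0 in both cold libraries. In all, 3 of the 7 root markers were listed at 0 in at least 1 library. The part of these shifts in the changes of the 5 unigenes was not tested. No stem marker was used.

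Other unigenes of the same pathways were taken by name from the parts of the supplement's annotation that were not chosen by expression, which name 4650 unigenes, 1865 of them tested. Of 57 such unigenes matched, 17 passed the filter. Under cold 7 of the 17 rose and none fell, against 14.8% and 22.4% of all tested unigenes, and their median log2 fold change was 0.37, against -0.18 over all. Under drought 3 rose and none fell, against 5.69% and 2.83% of all, with a median of 0.07. With median-of-ratios scaling 12 of the 17 rose under cold, but this scaling moved the median of all tested unigenes from -0.18 to 0.02. The share of all that rose with it is not given here. Whichever library was left out, fewer of these unigenes rose under cold than with all 6 libraries. Not all 17 stayed in every such fit. Under drought, too, fewer rose whichever library was left out.

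Among the calmodulins and other EF-hand proteins, 3 of 5 rose under cold, with log2 fold changes between 0.23 and 1.42 over the 5, and 1 rose under drought. One of the 3, the calmodulin c835_g1, had an FPKM of 0.68 and 0.83 under drought, 2.76 and 2.14 under cold, and 0 and 0.66 in control libraries. It passed the filter only through the cold libraries where it is high, so the counts of unigenes that rose under cold are a description and no support. Of the calcium-dependent kinases, which join a kinase and a calcium-binding domain in 1 protein, 2 of 5 rose in both stresses (c53692_g2 and c62775_g1). The share of all tested unigenes that rose in both is not given here. The only DEG of the 17 was one of these kinases, c53692_g2, whose Arabidopsis hit is calcium-dependent protein kinase 18. Its FPKM was 23.7 and 21.4 under drought, 51.4 and 53.2 under cold, and 7.86 and 7.90 in control libraries, and it rose by 1.41 log2 units under drought (adjusted p = 0.00266) and by 2.58 under cold (adjusted p = 0.000378). It was no longer a DEG without a filter or when either control, either cold library or drought replicate 2 was left out.

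Of the MAP kinases, 2 of 4 rose under cold and none under drought by limma, where none of the 4 had an absolute log2 fold change above 0.13. Neither of the tested MAPKK unigenes of the list, both named MEK homolog1, passed the test under drought or cold, with log2 fold changes of -0.34 and -0.04 under cold. The 1 tested CIPK of the list, c53178_g2, whose Arabidopsis hit is CIPK8, had an FPKM of 50.3 and 46.3 under drought, 44.6 and 49.4 under cold, and 47.9 and 31.7 in control libraries, without a change past the test. No SnRK1 or MAPKK kinase unigene of the list passed the filter. In drought against cold 7 of the 17 were lower under drought and none higher, beside 14.2% and 23.8% of all. With median-of-ratios scaling 13 were lower, but this scaling moved the median of all tested unigenes from 0.19 to -0.02. The share of all that were lower with it is not given here. Fewer than 7 were lower whichever library was left out.

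**Figure D4:**
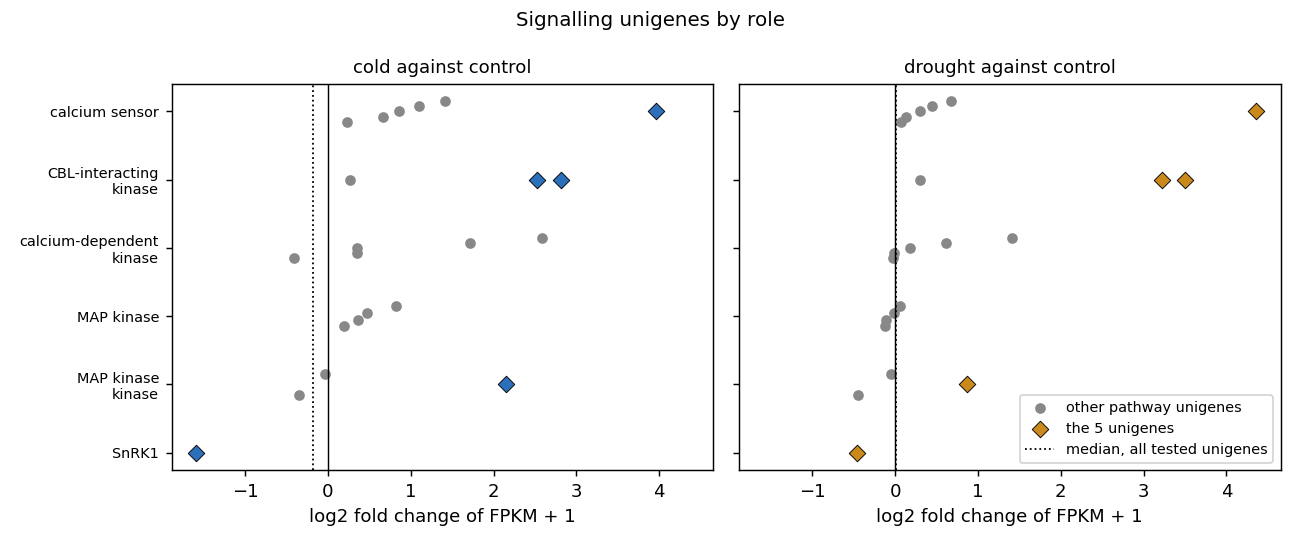
Log2 fold change of FPKM + 1 (x axis) under cold and under drought against the control for the 5 unigenes (diamonds) and the 17 other tested pathway unigenes (grey points), in rows by role, with a dotted line at the median of all tested unigenes. Under drought the sensor and both CIPK diamonds lie to the right of every grey point, whose highest value is 1.41, while under cold the calcium-dependent kinase c53692_g2 (2.58) lies beyond c49176_g1 (2.52).

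For each of the 5, the tested unigenes with the most similar profile were found by Euclidean distance of log2(FPKM + 1), each profile centred on its own mean over the 6 libraries. All profiles share the same libraries, so this is a description with no test, and names come only from the annotation parts used here, which include part of the study's list of cold DEGs. Nearest to CML16 was c63716_g5 (distance 0.75), named 9-cis-epoxycarotenoid dioxygenase 1, an enzyme of abscisic acid synthesis, with an FPKM of 48.9 and 50.9 under drought, 26.5 and 29.9 under cold, and 1.58 and 1.07 in the control. Next came c63996_g2, an uncharacterized maize protein (distance 0.90). For the CIPK unigene c51372_g1 the nearest was the other CIPK unigene (distance 0.47), followed by c55639_g1, an uncharacterized protein (distance 0.55).

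The nearest to c49176_g1 were c44810_g1 (distance 0.40) and c55917_g1 (distance 0.47), both without a functional name, and c51372_g1 ranked 3 of all. Nearest to the MAPKK was a calcium-dependent protein kinase, c64087_g1 (distance 0.16), with an FPKM of 67.1 and 59.5 under drought, 141.9 and 151.0 under cold, and 34.8 and 35.8 in the control, at a higher level but with the same order of groups. The second was c56595_g4 (distance 0.20), which has no name in the annotation used here. SnRK1 lay closest to c62418_g2 (distance 0.11) and c63386_g1 (distance 0.16), also without a name. The nearest named unigene, a probable phytol kinase (c49037_g1), ranked 190 at a distance of 0.39. These unigenes are more abundant, and c62418_g2 had an FPKM of 6.32 and 5.61 under cold and 19.7 and 17.4 in the control. As the pseudocount of 1 understates the changes of the low SnRK1 unigene, a small distance does not mean an equal change in FPKM. By distance from CML16, the MAPKK ranked 929 among the 38768 tested unigenes and the CIPK unigenes 20 and 27. Counted from the MAPKK, CML16 ranked 34720, c51372_g1 24341 and c49176_g1 19626, so the rank of 929 does not show that the profiles are alike.

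**Figure D5:**
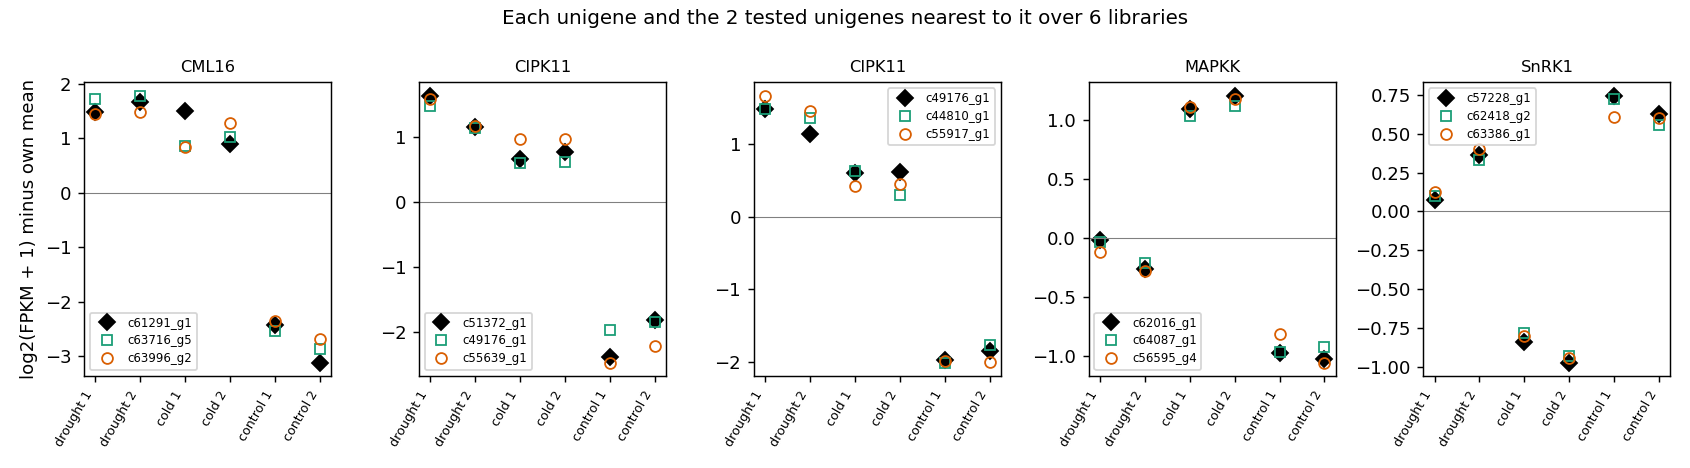
Log2(FPKM + 1) minus its own mean (y axis) in the 6 libraries for each of the 5 unigenes (black diamonds) and the 2 tested unigenes nearest to it (open squares and circles). The profiles of MAPKK and its neighbours peak under cold, those of SnRK1 and its neighbours are lowest there, and those of CML16 and both CIPK unigenes are lowest in the control.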

How the data were processed

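Per the labels and the methods of the study, poly(A) RNA of 6 teosinte samples was sequenced as read pairs on an Illumina HiSeq2500, and no read count per library is used here. The authors removed poor reads, built 1 Trinity assembly from the pooled reads, aligned each library to it with Bowtie 1.1.1 and quantified it with RSEM. The deposited FPKM values have 2 decimals, and no further scaling between libraries was applied here. Unigene coordinates and transcript sequences were not used here. The depth in reads is thus unknown from the table, and at low FPKM the decimals limit the precision. The sums of FPKM lay between 967046 and 993409 per library. Nothing in the labels says that same-numbered samples share a batch. The p-values rest on the spread between the 2 samples of a group, each of pooled seedlings. That spread is pooled over the groups and moderated toward a trend over all tested unigenes.

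FPKM was transformed by log2 after adding 1, filtered at a mean of at least 1 and fitted with limma 3.58.1 under R 4.3.3 (empirical Bayes with a mean-variance trend, 3 residual and 2.86 prior degrees of freedom, p adjusted after Benjamini and Hochberg in each comparison). Python 3.11.15 was used for tables and figures. The fit was tested on simulated data with noise drawn from its own fitted spread. Changes of 3 log2 units up or down were put into 200 unigenes, of which 195 were called. All 200 were more abundant in the control than any of the 5 members, so the test cannot speak for low unigenes or smaller changes. Named genes are the 5 members, their component mates, the nearest profiles, DEGs of the pathway list and the MAP kinase c14147_g1. The CIPK c53178_g2, the kinase c62775_g1 and the calmodulin c835_g1 were added after their values were seen. Members, lists and tests were chosen with earlier results of these data known. The alternatives were a pseudocount of 0.1, other filters, scalings, fits and thresholds, and leaving out each library. Supplementary annotation is held in part, so no enrichment was computed, and qRT-PCR values were not analysed.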

Additional observations from a re-analysis of the deposited data

How the results depend on the processing

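With all 6 libraries 4 of the 5 unigenes were DEGs under cold, 3 under drought and none in drought against cold by limma (4 at an unadjusted p under 0.05). Testing every unigene above 0 without a filter gave 0 under cold and 0 under drought, with fold changes by construction the same. There 5 and 4 had an unadjusted p under 0.05. The shares of all unigenes at an unadjusted p under 0.05 are not given here. Under drought, requiring FPKM 1 or more in 2 libraries, a fit without the mean-variance trend and a separate fit of the 4 libraries each gave 1, c49176_g1. Leaving out 1 library gave between 0 and 2 under cold and 0 under drought, with fewer residual degrees of freedom, a lone library being assumed to vary like the other groups. Lowering the fold threshold to 1 log2 unit gave 1 call in drought against cold, the MAPKK.

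With a replicate block the counts were 4, 2 and 0, and c51372_g1 left the drought DEGs (adjusted p = 0.00668), while the mate c57228_g3 passed 0.05 in drought against cold (adjusted p = 0.0202). The samples share only a number: replicate deviations correlated at r = -0.03 between cold and control, -0.01 between drought and control and 0.04 between drought and cold, over 38768 unigenes. Signs of the 5 unigenes held in all 14 alternatives, several of which leave the fold change the same by construction. Where 2 groups did not overlap, leaving out 1 library could not turn the sign. Among component mates, leaving out 1 library turned the sign of c57228_g2 in drought against control (-0.33 to 0.31, with 0.17 without control replicate 2) and in drought against cold (-0.62 to 0.019), and that of c57228_g3 in cold against control (-0.89 to 0.15). Median-of-ratios scaling turned that of c61291_g2 in drought against cold (-0.11). None of the turned values was called. The cause was not tested. Of the 17 other pathway unigenes 7 changed under cold, 3 under drought and 7 in drought against cold. The counts were 3, 1 and 3 without a filter, 6, 1 and 4 without the mean-variance trend, and 12, 3 and 13 with median-of-ratios scaling. The shares of all tested unigenes in these alternatives are not given here.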
